A study of Mus musculus with 24 samples.

Results

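Microglia of mice given WD-Exos were compared with microglia of mice given ND-Exos, all after the BCAS operation. The comparison used 12 of the 24 libraries of the study, chosen by the library names in the labels: 6 carry the name BCAS+WD-Exos and 6 the name BCAS+ND-Exos. All mice were of WT genotype, and all 12 samples were taken on day 28. Each injection, by the tail vein, held 100 µg of exosomes and was repeated every 3 days, so both groups share the operation, the route, the dose and the schedule. BCAS commonly stands for bilateral carotid artery stenosis, in which narrowed neck arteries lower blood flow to the forebrain and injure white matter. The labels do not spell out ND and WD, and the title of the series speaks of exosomes from foam cells, macrophages filled with lipid. The other groups of 6 were sham-operated mice (Sham) and BCAS mice, both given saline without exosomes, and they are used here for levels only. The labels do not say how many mice gave each sample or whether mice were pooled.

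Microglia are the resident macrophages of the brain. When they sense interferon, receptor-bound kinases phosphorylate STAT proteins, which enter the nucleus with IRF9 and switch on interferon-stimulated genes that act against viruses, mark proteins for turnover and load peptides on MHC class I. Phagocytosed material such as myelin is degraded in lysosomes, and the energy for this comes from glycolysis and from the mitochondrial respiratory chain. The comparison of the 2 kinds of exosome asks whether the source of the vesicles changes these programmes in the recipient brain.

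Total counts were 24844909 to 27483454 in the ND-Exos libraries and 26426726 to 27520163 in the WD-Exos libraries, a difference with p = 0.0563 (exact two-sided permutation test, adjusted p = 0.113 over 2 library measures). The libraries held 9581 ± 537 genes with a count in the ND-Exos group and 9773 ± 581 in the WD-Exos group (SD, n = 6, exact permutation p = 0.55). The fractalkine receptor Cx3cr1, a microglial marker, stood at 4645 ± 1180 CPM (counts put on 1 common library size) in the ND-Exos group and 4808 ± 762 in the WD-Exos group, and the purinergic receptor P2ry12 at 6023 ± 1724 and 4756 ± 1373. Libraries were compared over 5177 genes: 5 of 6 ND-Exos libraries had a higher mean correlation with the WD-Exos libraries than with the rest of their own group, against 0 of 6 WD-Exos libraries. ND-Exos replicate 3 and WD-Exos replicate 6 stood apart by their oligodendrocyte transcripts: the oligodendrocyte score, the mean log2(CPM + 1) of 11 markers, was 8.13 and 8.62 there.

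Of 10219 genes tested, 1 was higher and 1 was lower with WD-Exos at an adjusted p under 0.05 (edgeR's quasi-likelihood test, Benjamini-Hochberg over all genes), which is 0.00979% of the genes in the upward direction and 0.00979% in the downward direction. DESeq2, run as an alternative, called 124 genes, 80 higher and 44 lower, so the counts of members past the threshold below hold for edgeR. At an unadjusted p under 0.05 stood 545 genes, 297 higher and 248 lower, where a proportion of 0.05 of the genes tested is 511. Among the 1415 genes at 100 CPM or more, 111 were higher and 92 lower at that p. The median log2 fold change over all tested genes was -0.01, and 49.2% of them were higher with WD-Exos. In 30 genes every WD-Exos library lay above every ND-Exos library, which is 0.294% of the genes tested, and in 23 genes (0.225%) every WD-Exos library lay below. Log2 fold changes are WD-Exos minus ND-Exos throughout, with the standard error (SE) of the fit.

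The gene that rose was Lgals3bp, which encodes galectin-3-binding protein, a secreted glycoprotein whose transcript interferon induces. Its level in the ND-Exos libraries was 290, 316, 415, 388, 584 and 289 CPM in replicates 1 to 6. The WD-Exos libraries gave 1406, 1225, 1611, 3281, 923 and 1867 CPM. The lowest WD-Exos library therefore stood well above the highest ND-Exos library, and replicate 4 was the highest of the group. Lgals3bp had means of 380 ± 113 and 1719 ± 831 CPM (SD, n = 6), a log2 fold change of 2.18 with SE 0.30 and an adjusted p of 0.000522 in edgeR. Leaving out each library in turn kept Lgals3bp past the threshold, with log2 fold changes of 1.89 to 2.34. Without exosomes, Lgals3bp averaged 606 ± 199 CPM in Sham and 1303 ± 526 in BCAS. Set against BCAS, which both comparisons share, Lgals3bp differed by -1.78 with ND-Exos (adjusted p = 0.0115) and by 0.40 with WD-Exos (adjusted p = 1).

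The gene that fell was Gm20594, a predicted gene named here although its placeholder symbol falls outside the rule for named genes, after its values were seen. Gm20594 gave 578, 813, 677, 865, 502 and 727 CPM with ND-Exos, and 245, 185, 267, 335, 370 and 392 with WD-Exos. No library of one group reached the range of the other. The means were 694 ± 138 and 299 ± 80.0 CPM, a log2 fold change of -1.21 with SE 0.17 for Gm20594 (adjusted p = 0.000522, edgeR). Gm20594 averaged 409 ± 41.5 CPM in Sham and 300 ± 38.8 in BCAS, so the ND-Exos group was the one with the highest level. Its 449-base transcript aligns with the mitochondrial 16S ribosomal RNA mt-Rnr2 over 439 bases at 88.4% identity. The reads counted for Gm20594 may belong to that RNA, which was not tested. Fitted on the 12 libraries alone, Gm20594 had an adjusted p of 0.0786.

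**Figure D1:**
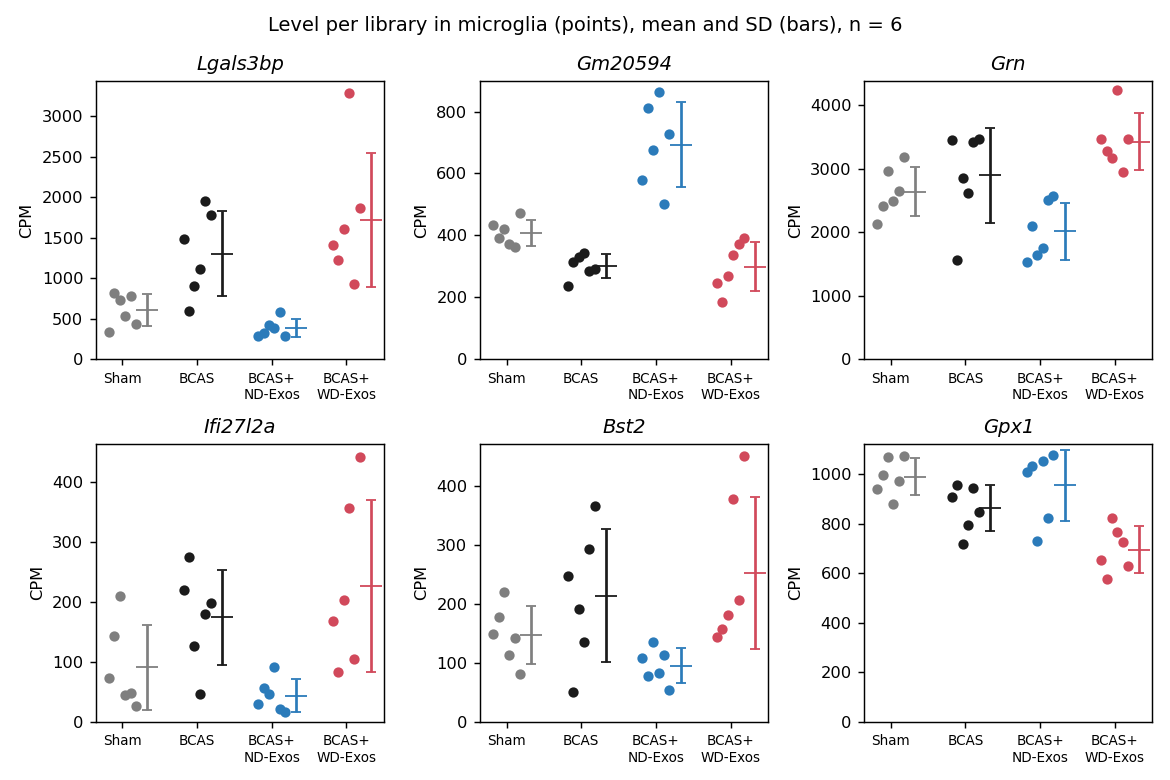
Level in CPM (vertical axes, linear, from 0) of 6 genes in each library of the 4 groups; points are libraries and bars are the mean and SD of 6. Lgals3bp, Grn and Bst2 are higher in every WD-Exos library than in every ND-Exos library and Gm20594 is lower in every one, while Ifi27l2a and Gpx1 overlap between the 2 groups.

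Interferon response genes were higher with WD-Exos in 33 of 36 tested members, with a median log2 fold change of 1.26 against -0.01 over all tested genes. Lgals3bp was the member past the threshold, and 14 members had an unadjusted p under 0.05, all of them higher, where 297 of the 10219 tested genes were higher at that p. The 3 members with lower values were Oas2, Ifi207 and Parp14. Over the 22 alternatives run, the median of the list was lowest, at 0.96, without WD-Exos replicate 6.

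Ifi27l2a, a small mitochondrial membrane protein induced by interferon, had 16.6 to 91.2 CPM with ND-Exos (median 38.2) and 83.6 to 443 CPM with WD-Exos (median 186). Only ND-Exos replicate 4 reached into the WD-Exos range. The log2 fold change of Ifi27l2a was 2.37 with SE 0.52 and an adjusted p of 0.254 in edgeR. Bst2, or tetherin, holds budding enveloped viruses at the cell surface. Bst2 ran from 54.2 to 135 CPM with ND-Exos (median 95.5) and from 143 to 452 CPM with WD-Exos (median 193), without overlap, for a log2 fold change of 1.41 with SE 0.36 (adjusted p = 0.299). Replicates 4 and 6 of the WD-Exos group carried the highest Bst2 values, 377 and 452 CPM.

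Among the transcription factors of the pathway, Irf9, the DNA-binding partner of the STAT dimer, averaged 77.3 ± 21.1 and 125 ± 27.5 CPM, a difference of 0.69 with SE 0.27 (adjusted p = 0.659). Irf7, which amplifies type I interferon production, was 0 to 24.9 CPM with ND-Exos and 13 to 116 CPM with WD-Exos (adjusted p = 1).

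The effector genes were low and uneven. Isg15, a ubiquitin-like modifier, had a count in 1 ND-Exos library (0.398 CPM) and in 5 WD-Exos libraries, up to 11.7 CPM. Rsad2, or viperin, which makes an antiviral nucleotide, had 18.3 CPM in 1 ND-Exos library and 0 in the other 5, whereas all 6 WD-Exos libraries held it at 1.25 to 24.8 CPM. Oas1a, a double-stranded RNA sensor, averaged 29.4 ± 31.3 and 120 ± 75.3 CPM (adjusted p = 0.79). Trim30a, a RING-finger protein, averaged 58.0 ± 32.9 and 139 ± 66.7 CPM, a log2 fold change of 1.26 with SE 0.34 (adjusted p = 0.299). Slfn8, a Schlafen family gene outside the interferon list, was named by the rule for its small p. It ran from 11.3 to 43.2 CPM with ND-Exos and from 65 to 99.7 CPM with WD-Exos. Slfn8 did not overlap between the groups and differed by 1.66 with SE 0.38 (adjusted p = 0.299), although close relatives of Slfn8, Ifi27l2a and the Oas genes may share reads with them.

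**Figure D2:**
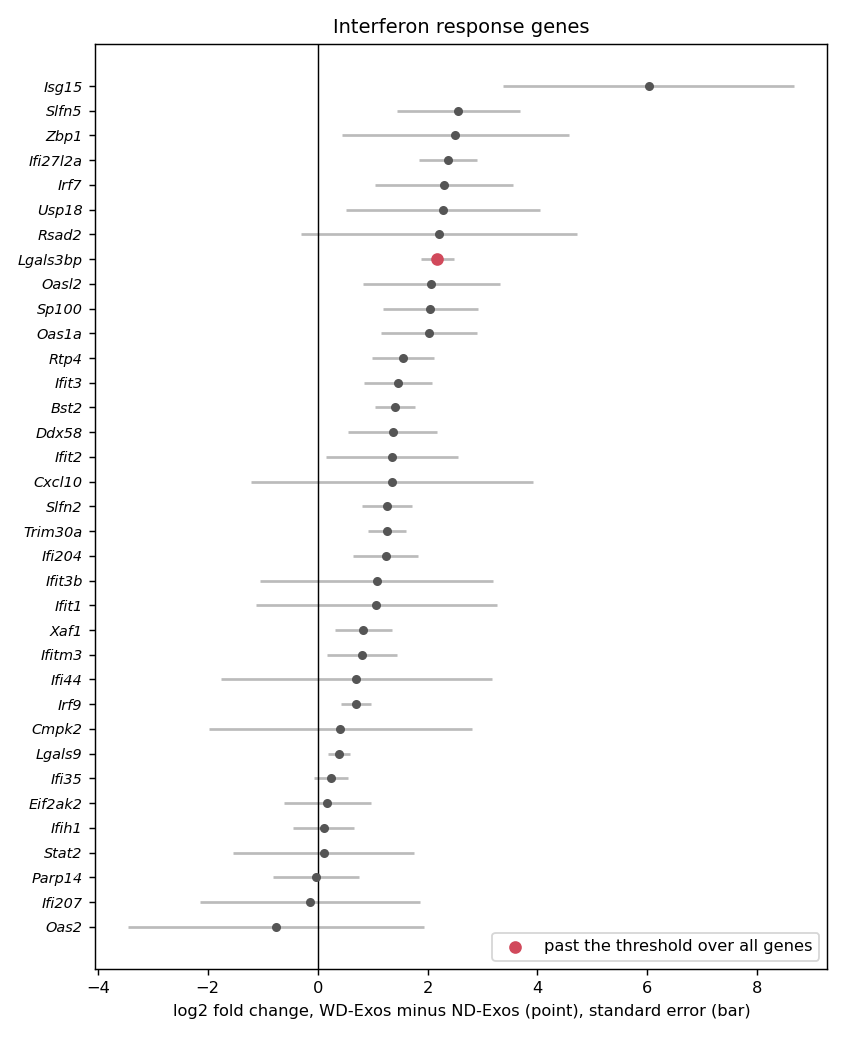
Log2 fold change of 35 of the 36 tested interferon response genes, WD-Exos minus ND-Exos (horizontal axis; point, estimate; bar, standard error). Lgals3bp is the coloured point past the threshold over all genes, 32 of the 35 points lie to the right of 0, and the bars are widest for genes near 0 CPM in one group.

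The bases in front of the start site were read for interferon genes from RefSeq promoters (build GRCm38.p6), because interferon-induced transcription acts through short elements there. Shown are Lgals3bp, as the gene past the threshold, and Isg15 and Rsad2, as members detected in most or all WD-Exos libraries and in 1 ND-Exos library. Each is the 250 bases upstream of the annotated start, 5′ to 3′ on the strand of the gene, and capitals mark the core of the interferon-stimulated response element, GAAANNGAAA on either strand, overlapping matches merged. Lgals3bp lies at chr11:118401960-118402209 (minus strand), Isg15 at chr4:156200819-156201068 (minus strand) and Rsad2 at chr12:26456453-26456702 (minus strand).
Lgals3bp: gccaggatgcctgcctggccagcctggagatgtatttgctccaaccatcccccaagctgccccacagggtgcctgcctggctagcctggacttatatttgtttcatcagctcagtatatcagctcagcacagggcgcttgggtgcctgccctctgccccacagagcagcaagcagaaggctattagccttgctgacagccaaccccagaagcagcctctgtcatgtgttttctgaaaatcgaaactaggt
Isg15: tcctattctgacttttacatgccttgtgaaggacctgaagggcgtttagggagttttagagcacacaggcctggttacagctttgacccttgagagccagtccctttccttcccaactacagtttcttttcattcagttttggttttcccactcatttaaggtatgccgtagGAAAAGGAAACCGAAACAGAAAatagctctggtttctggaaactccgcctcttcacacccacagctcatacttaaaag
Rsad2: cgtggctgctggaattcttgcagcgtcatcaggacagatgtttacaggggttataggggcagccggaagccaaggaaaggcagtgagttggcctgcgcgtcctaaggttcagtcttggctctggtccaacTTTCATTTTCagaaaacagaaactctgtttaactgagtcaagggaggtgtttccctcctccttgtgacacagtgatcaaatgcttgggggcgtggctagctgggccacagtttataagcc
The core was found in 13 of the 28 interferon genes with a promoter in that table (46.4%), against 3.39% of all tested genes with one. The list was composed of interferon-responsive genes, so this share says nothing on the difference between the exosome kinds. The window of Lgals3bp held no exact match, that of Isg15 held 3 and that of Rsad2 held 1. Close to its end the Lgals3bp window has gaaaatcgaaac, which repeats GAAA with a longer spacer than NN and so was not counted. In 4 other lists searched, the shares were 15% for MHC class I presentation, 9.09% for JAK-STAT signalling, 7.41% for lysosomal enzymes and 6.06% for complex I. A second motif, the gamma-activated site core TTCNNNGAA, stood in 4 of the 28 interferon genes (14.3%) against 7.06% of the tested genes. Its shares were 10% for MHC class I presentation, 18.2% for JAK-STAT signalling, 3.7% for lysosomal enzymes and 6.06% for complex I. A gene counted as holding a motif when any of its listed start sites did, and both motifs were chosen after the fold changes were known.

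MHC class I presentation genes were higher with WD-Exos in 19 of 23 tested members (median log2 fold change 0.30, and 0.19 without ND-Exos replicate 6), 5 of them with an unadjusted p under 0.05, against 111 of the 1415 genes at 100 CPM or more, and 0 past the threshold. The classical heavy chain H2-D1 ran from 1881 to 2566 CPM with ND-Exos (median 2123) and from 1726 to 4936 CPM with WD-Exos (median 3137). WD-Exos replicate 6 gave the lowest H2-D1 value of all 12 libraries and the other 5 lay above every ND-Exos library, with a log2 fold change of 0.59 and SE 0.23 (adjusted p = 0.649). In the non-classical H2-T23 that same library was the highest, at 1516 CPM, and the log2 fold change of H2-T23 went from 0.93 to 0.58 without it. Psme1, an activator of the proteasome, averaged 213 ± 22.6 and 318 ± 129 CPM (adjusted p = 0.614). B2m, the light chain of every class I molecule, stood at 11629 ± 2188 and 12834 ± 3571 CPM (adjusted p = 1). JAK-STAT signalling genes were higher in 22 of 26 tested members (median 0.35), and among them the receptor subunit Il6ra averaged 107 ± 70.2 and 180 ± 49.9 CPM (adjusted p = 0.905). Class II and costimulatory genes were higher in 3 of 11 (median -0.22), and 0 passed the threshold. The invariant chain Cd74 spread from 98.0 to 1499 CPM with ND-Exos and from 70.4 to 845 CPM with WD-Exos. The highest Cd74 values belonged to ND-Exos replicate 3 and WD-Exos replicate 6, the libraries rich in oligodendrocyte transcripts.

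Lysosomal genes were higher in 22 of 32 tested members, with a median of 0.10 that was 0.03 without ND-Exos replicate 3. An unadjusted p under 0.05 was found for 6 members, all higher, against 111 of the 1415 genes at 100 CPM or more. Grn encodes progranulin, a secreted and lysosomal glycoprotein that microglia make in large amounts. Grn gave 1532, 2094, 1638, 1746, 2507 and 2571 CPM with ND-Exos, and 3463, 3281, 3160, 4243, 2947 and 3459 with WD-Exos. The groups did not overlap, and the means for Grn were 2015 ± 448 and 3425 ± 445 CPM, a log2 fold change of 0.77 with SE 0.16 (adjusted p = 0.254, edgeR). Psap, the precursor of the saposins that help degrade sphingolipids, averaged 1854 ± 351 and 2689 ± 411 CPM, a difference of 0.54 with SE 0.15 (adjusted p = 0.299). Man2b1, a lysosomal mannosidase, averaged 1391 ± 400 and 2531 ± 774 CPM (adjusted p = 0.413). Arsb, which removes sulfate from glycosaminoglycans, averaged 227 ± 67.9 and 448 ± 128 CPM, a difference of 0.98 with SE 0.24 (adjusted p = 0.299). The proteases Ctsd and Ctsb had log2 fold changes of 0.40 (adjusted p = 0.881) and 0.16 (adjusted p = 1). Subunits of the vacuolar proton pump, which acidifies the lysosome, were higher in 7 of 18 (median -0.07, and -0.01 without ND-Exos replicate 1).

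Genes of the phagocyte's oxidase and metal handling lay beside these. Ncf1, the p47 organiser subunit of the NADPH oxidase, ran from 185 to 524 CPM with ND-Exos (median 256) and from 388 to 812 CPM with WD-Exos (median 571). ND-Exos replicate 5 was the library that reached into the WD-Exos range. Ncf1 differed by 1 with SE 0.23 (adjusted p = 0.29), and its adjusted p ran from 0.00619, without that replicate, to 0.576 when each library was left out in turn. Slc11a1, which pumps iron and manganese out of the phagosome, averaged 200 ± 79.9 and 378 ± 83.0 CPM, a difference of 0.92 with SE 0.22 (adjusted p = 0.299, and 0.0132, without ND-Exos replicate 5, to 0.576 over the left-out libraries). The endosomal chaperone Unc93b1, which delivers nucleic acid-sensing toll-like receptors to endosomes, averaged 588 ± 293 and 1162 ± 230 CPM (log2 fold change 0.98, SE 0.26, adjusted p = 0.299). The macrophage transcription factor Irf8 averaged 288 ± 68.1 and 493 ± 164 CPM (adjusted p = 0.299). Sirpa, the inhibitory receptor for the signal CD47, averaged 649 ± 84.8 and 992 ± 264 CPM (adjusted p = 0.299). The iron exporter Slc40a1 averaged 181 ± 121 and 86.8 ± 24.3 CPM (adjusted p = 0.614), and its log2 fold change of -1.06 became -0.65 without ND-Exos replicate 1.

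The nuclear genes of the respiratory chain were mostly lower with WD-Exos. Complex I subunits were lower in 31 of 37 (median log2 fold change -0.25, and -0.17 without WD-Exos replicate 2). Those of complexes II to V with cytochrome c were lower in 32 of 42 (median -0.24, and -0.15 without ND-Exos replicate 6). In either list, 0 members were past the threshold. Complex I passes electrons from NADH into the chain. Its subunit Ndufv3 ran from 81.9 to 101 CPM with ND-Exos (median 95.9) and from 42.4 to 80.5 CPM with WD-Exos (median 63.6), a log2 fold change of -0.58 with SE 0.21 (adjusted p = 0.594). Ndufc2 ran from 109 to 165 CPM and from 88.8 to 106 CPM, a log2 fold change of -0.53 with SE 0.20 (adjusted p = 0.63). Neither Ndufv3 nor Ndufc2 overlapped between the groups, and they were the 2 members of 37 of which this held, against 0.225% of all tested genes and 4 of the 1415 at 100 CPM or more. They were also the 2 complex I members lower at an unadjusted p under 0.05, where 92 of those 1415 genes were lower. Sdhb, the iron-sulfur subunit of complex II, had a log2 fold change of -0.56 (adjusted p = 0.78), which was -0.36 without ND-Exos replicate 4. Cycs, the electron carrier cytochrome c, averaged 158 ± 46.5 and 111 ± 27.9 CPM (adjusted p = 0.848). The complex I score, the mean log2(CPM + 1) of the members, was 6.28 to 6.55 with ND-Exos and 5.87 to 6.52 with WD-Exos, so the libraries overlapped. WD-Exos replicate 2 was the lowest and replicate 6 the highest of its group. Mitochondrial ribosomal proteins were lower in 52 of 78 (median -0.21), whereas cytosolic ribosomal proteins were lower in 46 of 85, with a median of -0.01 whose sign varied between the alternatives.

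**Figure D3:**
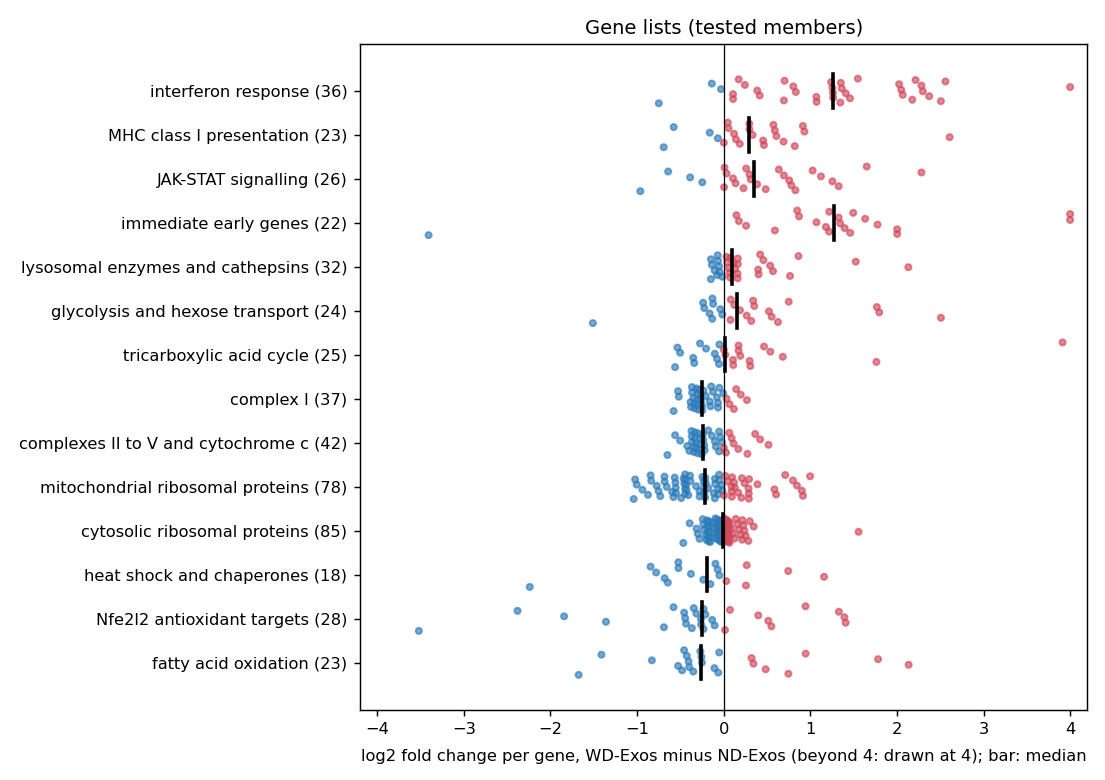
Log2 fold change per gene, WD-Exos minus ND-Exos (horizontal axis), for the tested members of 14 lists (number in brackets), with the median as a black bar. Interferon and immediate early genes lie mostly to the right with medians of 1.26 and 1.27, and complex I lies mostly to the left with a median of -0.25.

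Carbon metabolism was mixed. Glycolysis and hexose transport genes were higher in 15 of 24 (median 0.16, and 0.26 without ND-Exos replicate 5), with 5 at an unadjusted p under 0.05, all higher, against 111 of the 1415 genes at 100 CPM or more. Pkm, the pyruvate kinase of macrophages, averaged 465 ± 219 and 783 ± 179 CPM (log2 fold change 0.75, SE 0.29, adjusted p = 0.661). Gpi1, the second enzyme of glycolysis, averaged 220 ± 87.7 and 322 ± 22.1 CPM (adjusted p = 0.758). Cs, the citrate synthase that opens the tricarboxylic acid cycle, averaged 98.9 ± 28.9 and 159 ± 44.5 CPM (adjusted p = 0.524), beside 175 ± 36.3 in Sham and 196 ± 41.1 in BCAS. The cycle as a list was higher in 14 of 25 (median 0.02). Fatty acid oxidation genes were lower in 16 of 23 (median -0.26, and -0.14 without ND-Exos replicate 2), although Acadl, a dehydrogenase of that pathway and the member with the smallest p, was higher, at 37.1 ± 25.9 and 71.5 ± 27.3 CPM (adjusted p = 0.907). Genes of lipid uptake and droplets were higher in 9 of 19 (median -0.06) and those of cholesterol efflux and synthesis in 9 of 21 (median -0.12).

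Antioxidant and chaperone genes were more often lower. Targets of Nfe2l2, the transcription factor of the oxidative stress response, were lower in 19 of 28 (median -0.25), 6 of them with an unadjusted p under 0.05, against 92 lower of the 1415 genes at 100 CPM or more, and 0 past the threshold. Gpx1, which reduces hydrogen peroxide with glutathione, gave 732 to 1079 CPM with ND-Exos (median 1020) and 575 to 824 CPM with WD-Exos (median 690). ND-Exos replicates 3 and 5 fell within the range of the WD-Exos libraries. Gpx1 differed by -0.46 with SE 0.12 (adjusted p = 0.299). Prdx2, a thioredoxin-dependent peroxidase, averaged 175 ± 37.9 and 109 ± 16.2 CPM, a difference of -0.69 with SE 0.20 (adjusted p = 0.39). Heat shock and chaperone genes were lower in 13 of 18 (median -0.19, and -0.33 without WD-Exos replicate 2). The chaperone Hsp90aa1 averaged 554 ± 132 and 355 ± 73.3 CPM, a difference of -0.64 with SE 0.18 (adjusted p = 0.299), and Cct5, a subunit of the ring that folds actin and tubulin, 320 ± 71.9 and 223 ± 59.5 CPM (adjusted p = 0.524).

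Immediate early genes, which cells transcribe within minutes of a stimulus and also during tissue dissociation, were higher in 21 of 22 tested members, with a median of 1.27 and 0 past the threshold. They divided the WD-Exos libraries, and the BCAS libraries without exosomes were also widely spread. Their summed level ran from 2020 to 26500 CPM with WD-Exos and from 914 to 21100 CPM in BCAS. Jun gave 149 to 212 CPM in the 6 ND-Exos libraries, whereas the WD-Exos libraries gave 765, 2699, 390, 105, 200 and 45.1 CPM in replicates 1 to 6. The WD-Exos group thus held the highest and the lowest Jun values, and the log2 fold change of Jun, 2 with SE 0.72 (adjusted p = 0.578), was 0.79 without replicate 2. Fos, its dimer partner, gave 573 to 899 CPM with ND-Exos and 200 to 4884 CPM with WD-Exos (adjusted p = 1). The list's median was 0.53 without WD-Exos replicate 2 and 0.36 with the number of genes with a count as a covariate.

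**Figure D4:**
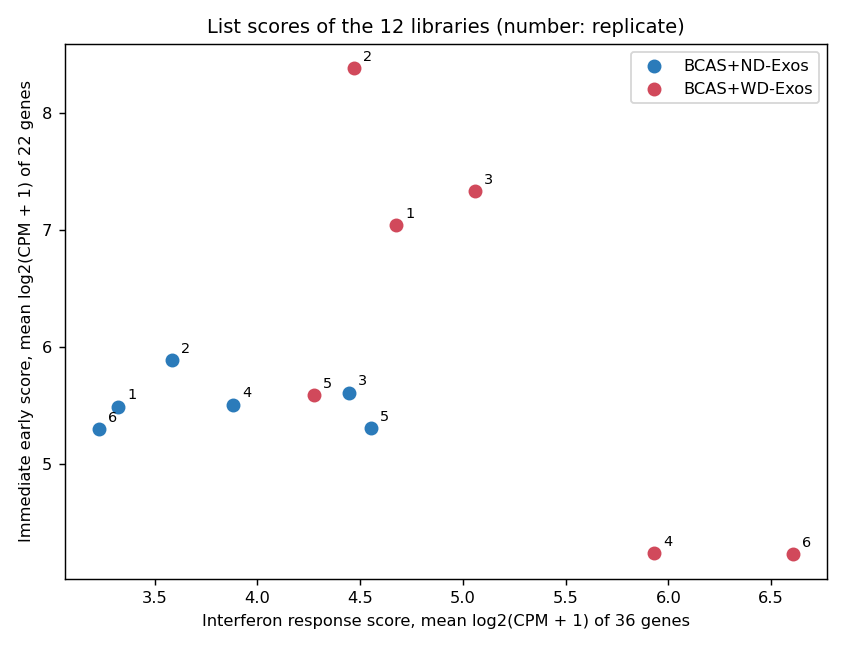
Interferon response score (horizontal axis) and immediate early score (vertical axis), each a mean log2(CPM + 1) over the list's tested genes, in the 12 libraries, numbered by replicate. WD-Exos replicates 4 and 6 have the highest interferon scores and the lowest immediate early scores, and replicates 1, 2 and 3 have the highest immediate early scores.

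The interferon score ran from 3.23 to 4.55 with ND-Exos and from 4.27 to 6.61 with WD-Exos, with an overlap at ND-Exos replicates 3 and 5. The immediate early score ran from 5.30 to 5.89 and from 4.22 to 8.39. Without exosomes it ran from 3.805 to 5.188 in Sham and from 3.249 to 7.884 in BCAS. BCAS replicates 5 and 6, like WD-Exos replicates 4 and 6, had the highest interferon and lowest immediate early scores of their group. In Sham the interferon score was 3.49 to 5.16 (median 3.75) and in BCAS 3.93 to 5.61 (median 4.74). The median was 3.73 with ND-Exos, near that of Sham, and 4.87 with WD-Exos, near that of BCAS. Only WD-Exos replicates 4 and 6 lay above the BCAS range, and the ND-Exos range began below those of Sham and BCAS. Inflammatory cytokine and NF-kB target genes were higher in 17 of 26 (median 0.19, and 0.05 without WD-Exos replicate 1). Icam1, an adhesion molecule, averaged 117 ± 64.1 and 200 ± 61.6 CPM (adjusted p = 0.881), and Nfkbia, the inhibitor that NF-kB itself induces, 146 ± 70.5 and 300 ± 210 CPM (adjusted p = 1). Chemokine genes were higher in 9 of 14 (median 0.28, and 0.13 without WD-Exos replicate 6), although 0 were higher and 2 were lower at an unadjusted p under 0.05. The T cell attractant Cxcl9 went the other way from the interferon list: it stood at 32.2 to 58.7 CPM in 4 ND-Exos libraries and at most at 0.0396 CPM in the other 8 (adjusted p = 0.321).

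Microglial state genes did not move in 1 direction. Homeostatic genes were higher in 13 of 24 (median 0.05) and disease-associated genes in 15 of 26 (median 0.09), with 0 past the threshold in either list. Csf1r, the receptor on which microglial survival depends, averaged 7429 ± 2412 and 12419 ± 3101 CPM, a difference of 0.74 with SE 0.24 (adjusted p = 0.513). Tmem119, a microglial surface marker, averaged 1462 ± 318 and 2245 ± 607 CPM (adjusted p = 0.627). Tgfbr1, a receptor for the cytokine that maintains microglial identity, averaged 451 ± 195 and 304 ± 93.4 CPM (adjusted p = 0.881). Itgax, or CD11c, was at 25.4 CPM in 1 ND-Exos library and at most 0.107 in the other 5, whereas WD-Exos libraries held 7.82 to 86.1 CPM. The adjusted p of Itgax was 0.962, and 0.0209 to 1 over the left-out libraries, lowest without ND-Exos replicate 4, the single ND-Exos library above 0.107 CPM. Complement genes were higher in 9 of 15 (median 0.02), among them the C1q chain C1qc at 3259 ± 1346 and 5365 ± 2080 CPM (adjusted p = 0.878). In that list 1 member was higher and 2 were lower at an unadjusted p under 0.05. The receptor C5ar1 was lower, with a log2 fold change of -0.71.

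Outside the lists, genes that the rule named as higher, none of them past the threshold, included Slc7a8, an exchanger of neutral amino acids, at 91.7 to 280 CPM with ND-Exos and 321 to 495 with WD-Exos (log2 fold change 1.01, SE 0.24, adjusted p = 0.299). Slco2b1, a transporter of organic anions, ran from 478 to 855 CPM and from 962 to 1578 CPM (0.85, SE 0.21, adjusted p = 0.299). Clptm1 ran from 18.1 to 67.2 CPM and from 94.6 to 187 CPM, and Shisa5 from 145 to 392 CPM and from 399 to 743 CPM. The ranges of Clptm1 and Shisa5 did not overlap between the groups. Arhgdia, which keeps small GTPases inactive in the cytosol, averaged 297 ± 184 and 713 ± 251 CPM (adjusted p = 0.299). Among those named as lower, Ddx6, an RNA helicase of processing bodies, ran from 48.4 to 107 CPM and from 13.9 to 42.1 CPM (-1.59, SE 0.43, adjusted p = 0.299). Smg1, the kinase that starts nonsense-mediated decay, ran from 50.7 to 96.7 CPM and from 3.83 to 32.9 CPM (-1.99, SE 0.54, adjusted p = 0.30). Itgb5, an integrin used to take up dying cells, is an exception here, as a member of the Fc receptor and phagocytosis list. It ran from 521 to 949 CPM and from 305 to 478 CPM (-0.67, SE 0.19, adjusted p = 0.321). The ranges of Ddx6, Smg1 and Itgb5 did not overlap. Zfhx3, a zinc finger and homeobox transcription factor, averaged 183 ± 35.1 and 106 ± 19.9 CPM (-0.78, SE 0.21, adjusted p = 0.299). Dock10, an activator of small GTPases, averaged 182 ± 59.7 and 70.2 ± 26.5 CPM (-1.37, SE 0.36, adjusted p = 0.299).

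The log2 fold changes of the other genes named as higher were 1.80 for Emc10, 1.61 for Mob3a and 1.29 for Mfng, which adds sugar to Notch receptors. Those of the others named as lower were -2.51 for the phosphatidylinositol carrier Pitpna, -1.30 for Anp32a, -1.76 for Hook3, -1.05 for Nde1, -0.82 for Sec62, -0.66 for Actr2 and -0.53 for the translation factor Eif4a2.

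The other lists had 0 members past the threshold. Pentose phosphate genes were higher in 5 of 6 (median 0.32, and 0.19 without WD-Exos replicate 4), and NADPH oxidase genes in 5 of 8 (0.12, and 0.06 without WD-Exos replicate 1). Toll-like and nucleic acid sensors were higher in 24 of 36 (0.11, and 0.05 without ND-Exos replicate 3). Autophagy and mitophagy genes were higher in 20 of 33 (0.14, and 0.02 without WD-Exos replicate 2), although 1 was higher and 4 were lower at an unadjusted p under 0.05. Fc receptor and phagocytosis genes were higher in 14 of 22 (0.09, and 0.04 without WD-Exos replicate 5). Vesicle traffic genes were higher in 22 of 32 (0.08), with a median of 0.00416 without ND-Exos replicate 3. Among autophagy genes, the cargo receptor Sqstm1 averaged 181 ± 81.9 and 327 ± 120 CPM (adjusted p = 0.599), while another receptor, Tax1bp1, averaged 194 ± 77.3 and 126 ± 23 CPM (adjusted p = 0.546). The tetraspanin Tspan14 averaged 240 ± 63.2 and 347 ± 38.5 CPM (adjusted p = 0.548). Iron storage and uptake genes were lower in 8 of 12 (median -0.22, and -0.14 without ND-Exos replicate 2), cell cycle genes in 15 of 21 (-0.44) and proteasome subunits in 26 of 40 (-0.05), and the last 2 of these medians changed sign under at least 1 alternative. Rptor, the scaffold of mTOR complex 1, averaged 27.4 ± 18.4 and 75.6 ± 30.0 CPM (log2 fold change 1.46, SE 0.48, adjusted p = 0.524), within an mTOR and AMPK list that was higher in 13 of 28 (median -0.01). The mitochondrial carrier Ucp2 averaged 882 ± 215 and 1227 ± 152 CPM (adjusted p = 0.546), and genes of mitochondrial assembly, import and dynamics were higher in 13 of 31 (median -0.02). Stress response genes of the unfolded protein pathway were higher in 10 of 21 (median -0.05). Genes of TGF-beta signalling and microglial identity were likewise higher in 10 of 21 (median -0.06). The medians of the mTOR, mitochondrial assembly, unfolded protein and TGF-beta lists also changed sign under at least 1 alternative.

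Some genes were close to present or absent. A count in all 6 WD-Exos libraries and in at most 1 ND-Exos library was found for 9 genes, and the reverse for 4. These were among 14132 genes with a count in at least 1 of the 12 libraries. Some came near the floor, such as Impdh1 with a lowest WD-Exos value of 0.0383 CPM. Klhl26 was at 0 in all ND-Exos libraries and at 13.7 ± 5.49 CPM with WD-Exos. Without exosomes it averaged 1.84 ± 4.51 CPM in Sham and 5.93 ± 12.3 in BCAS, and libraries of both those groups also had 0. Il6, a cytokine that signals through STAT3, had 5.27 CPM in 1 ND-Exos library and 2.77 to 9.04 CPM in the 6 WD-Exos libraries (adjusted p = 1). These genes were chosen after their values were seen. Missing counts were common: 43.8% of the tested genes lacked a count in at least 1 of the 12 libraries.

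Markers of other cells were compared beside these lists. Border macrophage markers, for the macrophages of the meninges and perivascular spaces, were lower with WD-Exos in 10 of 10 tested members (median -1.95), with 0 past the threshold. Without ND-Exos replicate 3, of the 12 libraries the one with the highest score, 30% of them were higher and the median was -1.39. Their summed level was 234 to 975 CPM with ND-Exos and 137 to 344 CPM with WD-Exos, where 12 and 11 of the 12 markers in the table had a count in the group. Mrc1, the mannose receptor, ran from 23.1 to 177 CPM and from 0.154 to 44.3 CPM (adjusted p = 1), and the chemokine Pf4 from 19.98 to 115 CPM and from 0.0365 to 22.2 CPM (adjusted p = 0.839). Monocyte markers summed to 0.143 to 53.0 CPM and 4.11 to 75.1 CPM, and T and NK cell markers to 0 to 33.1 CPM and 0 to 1.88 CPM. The part of these markers in the results above was not tested. In bulk libraries, fewer cells of a type and less RNA per cell cannot be told apart.

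**Figure D5:**
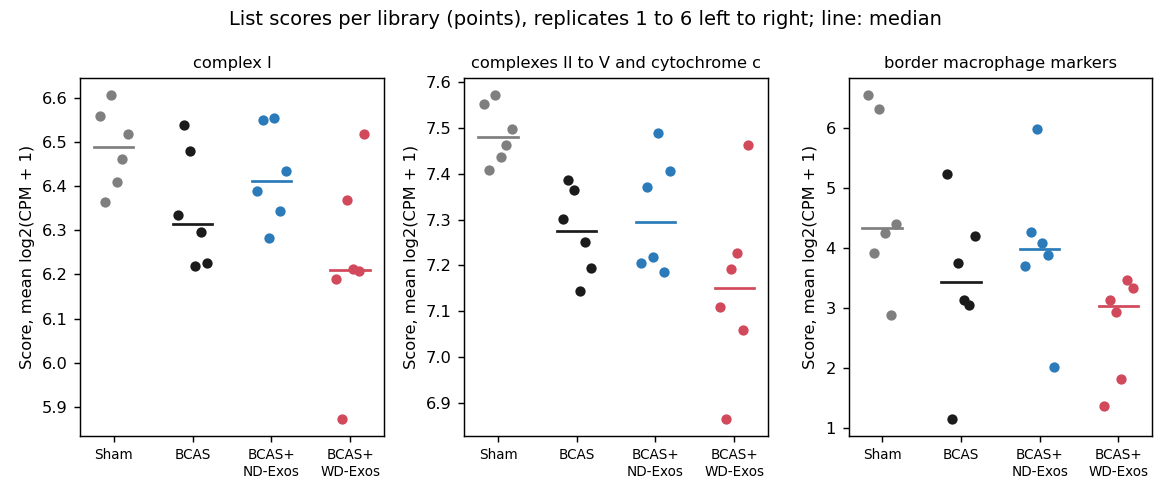
Score per library, mean log2(CPM + 1) of the list (vertical axes, which do not start at 0), for complex I, for complexes II to V with cytochrome c, and for border macrophage markers, in the 4 groups; lines are medians. The complex I score of WD-Exos replicate 2 is the lowest at 5.87, and the WD-Exos libraries overlap with the ND-Exos libraries in all 3 panels.

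Without ND-Exos replicate 3 and WD-Exos replicate 6, the libraries rich in oligodendrocyte transcripts, 2 genes passed the threshold, Lgals3bp (log2 fold change 2.18, adjusted p = 0.00622) and Gm20594 (-1.31, adjusted p = 0.00139), and the median of the interferon list was 1.10. Of the lists described above with their medians, those of class II, homeostatic, disease-associated, complement, cytosolic ribosomal, tricarboxylic acid cycle, lipid uptake and cholesterol genes changed the sign of their median under at least 1 alternative. Genes at 100 CPM or more had a median SE of 0.241, and all genes together one of 1.10, so a difference of the size of most list medians was not detectable in single genes.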

How the data were processed

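Per the labels' protocols, microglia were isolated by FACS into lysis buffer, and RNA was amplified by Smart-seq2. The authors deposited a table of estimated counts per Entrez gene, made from the sequenced reads and not scaled between libraries; that they are estimates was read from the values, which were whole in every library for 76.8% of the genes. The sources used here do not name the aligner, counter, strandedness, build or annotation. Of 22064 identifiers, 6186 were blank throughout and left out. Symbols came from RefSeq (GRCm38.p6) for 15828 of the other 15878. Groups were read from library names, since the titles of exosome samples repeat 1 number. The labels do not name separate mice, so the p-values reflect only how these samples vary, which may be technical. Without molecular identifiers, amplified reads do not count independent molecules.

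Values were rounded and tested in edgeR 4.0.16 (R 4.3.3): filterByExpr (minimum count 10), TMM, 1 robust quasi-likelihood fit over all 24 libraries with 4 group means, and Benjamini-Hochberg at 0.05. CPM are on the TMM scale, and scores add a pseudocount of 1 CPM. The 36 gene lists and 13 marker lists got no test.

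The rule for named genes took, in each direction, 15 genes with an established symbol by smallest p (past the threshold first, then at 20 CPM or more in the higher group), up to 3 members of each list at 10 CPM or more, and 5 microglial genes as levels. The text gives a part of them (some that the rule picked are not reported here) and adds some chosen after their values were seen. The comparison, the lists and the rule were chosen with earlier results of these data known. The promoter motif search was added after the fold changes had been seen. Alternatives included other size factors, other filters, a replicate block, 12 libraries only, DESeq2 1.42.0, voom (limma 3.58.1), a covariate and leaving out each library. Gm20594 was aligned with blastn 2.17.0 to GENCODE transcripts. The fit was tested on simulated data.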

Additional observations from a re-analysis of the deposited data

Results flagged for a closer look

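In each group of 6, a library was looked at again when its gap to the nearest other was too large a part of the group's range by Dixon's critical value for 6 samples. Of 160 groups checked, 10 met this, where chance gives about 8. With ND-Exos these were Slc11a1 in replicate 5 (356.6 CPM, high), Smg1 in replicate 3 (96.65 CPM, high) and Actr2, an actin-nucleating subunit, in replicate 4 (719.8 CPM, high). With WD-Exos they were Itgb5 in replicate 2 (304.8 CPM, low) and Jun in replicate 2 (2699 CPM, high). ND-Exos replicate 3 also had the lowest homeostatic score of its group (10.4), an oligodendrocyte score of 8.135 and the most genes with a count (10603). The mitochondrial ribosomal score was 4.883 in ND-Exos replicate 4. The oligodendrocyte score of WD-Exos replicate 6 was 8.618.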

How the results depend on the processing

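With edgeR's 2 calls, 1 higher and 1 lower, as the reference, DESeq2 called 124 genes (80 higher, 44 lower), both calls among them. Voom with library weights called 4 (3 higher, 1 lower), adding Katnal1 and Klhl26, and shifted the median of all genes to 0.115. The fit on the 12 libraries alone called 1, Lgals3bp, and 0 lower. Leaving out each library gave 2 to 5 calls, 1 to 4 of them higher: Itgax was added without ND-Exos replicate 4, and Ncf1, Slc11a1 and Mob3a without ND-Exos replicate 5. The cause of these differences was not tested. With the replicate number as a block, 2 genes passed (smallest adjusted p = 0.00262); same-numbered libraries deviated together with correlations of only -0.0545 to 0.0223, so the numbers are not taken as pairs. The DESeq2-type size factors, no filter, the 20 CPM filter, the covariate and both pairs of left-out libraries (added after seeing the data) also gave 2. All 101 genes examined kept their direction in all 2216 pairs of gene and alternative. Many had been named by small p in these same libraries, so a kept direction was likely beforehand. Some genes given above with a fold change, such as Ctsb and Trim30a, were not in that set. The median SE of the fold changes was 1.10 over all genes and 0.241 over the 1415 at 100 CPM or more, which limits what single genes can show.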
